A study of Mus musculus with 4 samples.

Results

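The type I interferon response was described gene by gene in the main cell classes of dystrophic mouse muscle, with and without the chemokine receptor CCR2. The gene set lists 39 interferon-induced genes, chosen by symbol, and 38 of them have a row among the 32285 genes of the deposited matrices. Mx1 has no row under that symbol and is not analysed here. The 4 libraries hold mononuclear cells from mice aged 14 weeks, 1 library per group. The groups are mdx5cv/Ccr2-/- quadriceps, mdx5cv quadriceps, mdx5cv/Ccr2-/- diaphragm and mdx5cv diaphragm, and 4 values given together keep this order. All 4 groups carry the mdx5cv mutation, which removes full-length dystrophin and models Duchenne muscular dystrophy, so no library holds healthy muscle. The sources used here do not say how many animals each library pools, which part of Ccr2 is deleted or on which strain the knockout was made.

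Type I interferons bind a receptor made of IFNAR1 and IFNAR2, which activates the kinases JAK1 and TYK2. A complex that holds STAT2 and IRF9 then binds the interferon-stimulated response element in the promoters of its target genes. The products of these genes sense foreign nucleic acids, block viral RNA and protein synthesis, tag proteins with ISG15, or feed back on the pathway, as IRF7 does by driving further interferon production. Classical monocytes need CCR2 to leave the bone marrow, and they give rise to many of the macrophages of injured muscle.

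Promoter sequences were examined because a shared response element is the best-known feature of such genes. RefSeq (GRCm38.p6) gave windows of 250 bases before to 50 bases after the gene start for 30 of the 39 listed genes. The motif searched, GAAANNGAAA on either strand with overlapping matches allowed, is a short form of the response element. It was present in the windows of 16 of these 30 genes (53.3%), against 1079 of 27025 genes in the whole table (3.99%). Isg15 held 3 overlapping matches, and Ifit1, Ifit3, Ifit3b, Oas1a and Bst2 held 2 each. The windows of Ifit2, Irf7, Irf9, Oasl1, Oasl2, Cmpk2, Samd9l, Herc6, Trim25, Dtx3l, Ifi35, Ifi44, Xaf1 and Phf11d held none of these letters. Bases -220 to -21 relative to the gene start are printed below for 7 genes chosen from those with the motif. They run 5′ to 3′ on the strand of the gene, with the motif or its reverse complement in capitals. Ifit2 and Irf7, whose values are prominent below, held no motif and are not printed. The stretches lie at chr19:34640669-34640868 (plus strand, Ifit1), chr19:34583309-34583508 (plus, Ifit3), chr19:34607737-34607936 (plus, Ifit3b), chr4:156200839-156201038 (minus, Isg15), chr12:26456473-26456672 (minus, Rsad2), chr8:71537493-71537692 (minus, Bst2) and chr11:82951882-82952081 (plus, Slfn5).
Ifit1: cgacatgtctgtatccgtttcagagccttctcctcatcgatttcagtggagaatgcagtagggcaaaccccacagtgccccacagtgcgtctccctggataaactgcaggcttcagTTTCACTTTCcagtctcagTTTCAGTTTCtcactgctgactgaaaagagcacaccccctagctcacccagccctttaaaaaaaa
Ifit3: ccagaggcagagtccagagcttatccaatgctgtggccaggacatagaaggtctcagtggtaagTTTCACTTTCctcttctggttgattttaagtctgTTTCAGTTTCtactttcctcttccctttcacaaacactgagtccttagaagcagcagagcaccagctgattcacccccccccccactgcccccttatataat
Ifit3b: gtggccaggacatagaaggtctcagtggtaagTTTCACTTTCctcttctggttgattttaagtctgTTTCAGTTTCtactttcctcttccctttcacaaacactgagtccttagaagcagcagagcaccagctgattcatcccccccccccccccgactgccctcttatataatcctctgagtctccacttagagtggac
Isg15: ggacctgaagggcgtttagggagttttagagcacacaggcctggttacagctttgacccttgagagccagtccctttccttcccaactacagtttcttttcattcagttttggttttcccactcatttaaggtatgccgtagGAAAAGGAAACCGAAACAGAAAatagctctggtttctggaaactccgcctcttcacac
Rsad2: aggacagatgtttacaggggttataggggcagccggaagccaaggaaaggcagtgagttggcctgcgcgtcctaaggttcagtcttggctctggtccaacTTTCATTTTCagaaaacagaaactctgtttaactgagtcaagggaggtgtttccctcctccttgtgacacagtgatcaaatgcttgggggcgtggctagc
Bst2: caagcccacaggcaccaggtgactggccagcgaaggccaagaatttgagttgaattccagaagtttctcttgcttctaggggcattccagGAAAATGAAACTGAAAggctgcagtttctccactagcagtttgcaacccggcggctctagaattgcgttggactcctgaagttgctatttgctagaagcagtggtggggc
Slfn5: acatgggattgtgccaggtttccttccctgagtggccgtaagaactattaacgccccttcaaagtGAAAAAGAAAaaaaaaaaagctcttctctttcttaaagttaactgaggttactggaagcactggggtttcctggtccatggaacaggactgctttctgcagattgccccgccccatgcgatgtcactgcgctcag

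The 4 Ifit genes lie side by side on chromosome 19, from Ifit2 (34550694 to 34576419) to Ifit1 (34640871 to 34650009), per the GENCODE M21 annotation of GRCm38. Ifit3 (34583531 to 34588731) and Ifit3b (34607970 to 34613401) have transcripts that are 98.0% identical over 1697 aligned bases, and their printed promoters share the same pair of motif matches. Phf11b and Phf11d share 91.8% over 1098 aligned bases. The sources used here do not say how reads were divided between such copies, so the values of these 4 genes are uncertain. Dtx3l and Parp9 overlap on opposite strands, and the strand setting of the counting is not given either. No listed gene shares chromosome 9 with Ccr2.

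The libraries held 66330555, 56399477, 67356144 and 92189580 UMIs (unique molecular identifiers, each marking 1 captured RNA molecule). After filtering, 6403, 4993, 6083 and 11256 cells remained, with medians of 6689, 7986, 8969 and 5872 UMIs per cell. Of the barcode sequences, 104 occurred in 2 libraries. Ccr2 transcripts stood at 15.4 CPM (UMIs scaled to a common total) in all cells of mdx5cv/Ccr2-/- quadriceps, against 253 CPM in mdx5cv quadriceps, and at 8.49 CPM in mdx5cv/Ccr2-/- diaphragm, against 136 CPM in mdx5cv diaphragm. Cells were put into 15 classes by the UMIs of marker genes, and 24379 of 28735 cells (84.8%) were assigned. 6 classes held 50 cells or more in each library. In these, 6 or more of the 7 to 9 markers of the class were each seen in at least 10% of its cells in every library. With 1 library per group there is no replicate check and no p-value. Ratios carry exact conditional binomial 95% intervals, which cover counting error only and take each UMI as independent.

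Over all cells together, 37 of 38 genes had a lower CPM in mdx5cv/Ccr2-/- quadriceps than in mdx5cv quadriceps, with a median ratio of 0.686. In the diaphragm 37 of 38 genes were likewise lower in mdx5cv/Ccr2-/- cells than in mdx5cv cells, with a median ratio of 0.769. The exceptions were Parp9 in quadriceps (ratio 1.01) and Ifit1 in diaphragm (ratio 1.03). The share of all genes that were lower is not given, so these counts cannot be read as particular to the list. Such whole-library values mix the level in a cell with the share of each class, and the macrophage class made up 13.1%, 21.9%, 7.15% and 15.1% of cells. The classes were therefore taken 1 by 1.

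Summed over the 38 genes, the response was lower without Ccr2 in both muscles in all 6 classes, by unequal amounts. Macrophages held 2678 CPM in mdx5cv/Ccr2-/- quadriceps and 4111 CPM in mdx5cv quadriceps, a ratio of 0.651 (0.642 to 0.660). Macrophages of the diaphragm held 3279 CPM in mdx5cv/Ccr2-/- and 4130 CPM in mdx5cv, a ratio of 0.794 (0.780 to 0.808). Fibroblasts held 1274 and 1806 CPM in mdx5cv/Ccr2-/- and mdx5cv quadriceps, a ratio of 0.706 (0.694 to 0.718). Diaphragm fibroblasts held 1744 and 2104 CPM in mdx5cv/Ccr2-/- and mdx5cv, a ratio of 0.829 (0.821 to 0.837). Endothelial cells were the closest to 1 among the 6 classes. Their sums were 3880 and 4296 CPM in mdx5cv/Ccr2-/- and mdx5cv quadriceps, a ratio of 0.903 (0.890 to 0.917), and 3824 and 4054 CPM in mdx5cv/Ccr2-/- and mdx5cv diaphragm, a ratio of 0.943 (0.921 to 0.967). The bars of summed CPM by class show the step between genotypes in macrophages and a smaller one in endothelial cells. Whether the classes differ in this ratio was not tested.

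**Figure D1:**
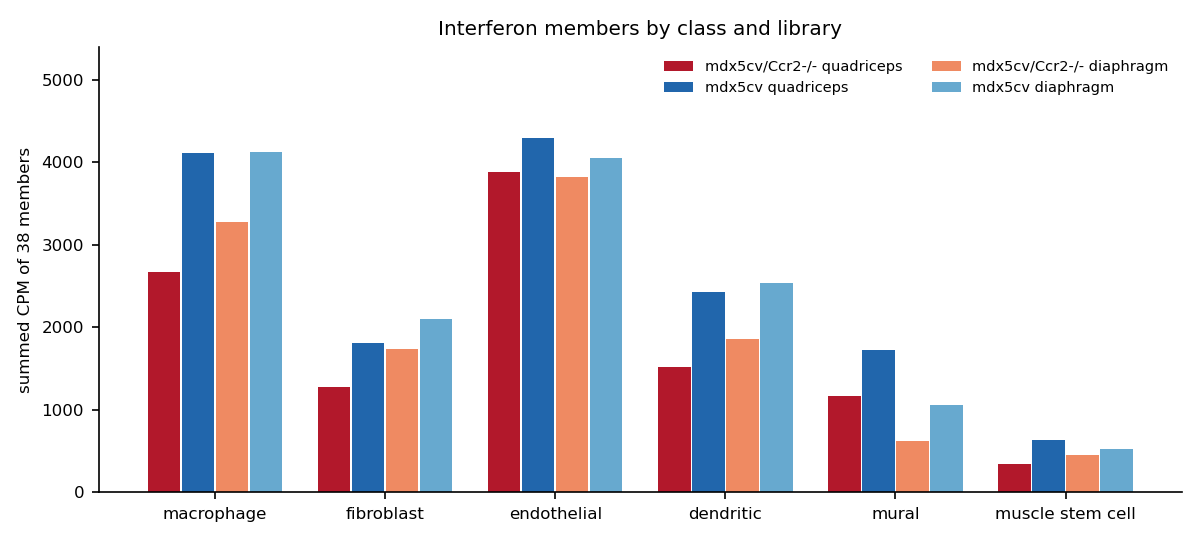
Summed CPM of the 38 genes (vertical axis) in 6 cell classes, 1 bar per library. Macrophages stood at 2678, 4111, 3279 and 4130 CPM and endothelial cells at 3880, 4296, 3824 and 4054 CPM, while muscle stem cells stayed below 650 CPM in every library.

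The classes also differed in which genes they carried. Among the 6 classes, 21 of the 38 genes had their highest CPM in endothelial cells in each of the 4 libraries, 5 in macrophages (Zbp1, Oas1a, Oas3, Slfn8 and Ifi27l2a) and 2 in dendritic cells (Trim30a and Phf11b). The other 10 had no single highest class. The share of all genes highest in each class is not given, so whether these counts are particular to the list was not tested. Slfn5, a member of the Schlafen family, stood at 839, 770, 781 and 694 CPM in endothelial cells and at 98.4, 201, 136 and 235 CPM in macrophages. Rsad2, which encodes the antiviral enzyme viperin, stood at 230, 262, 242 and 239 CPM in endothelial cells and at 36.4, 96.5, 39 and 81 CPM in macrophages. Oas3, an oligoadenylate synthase, ran the other way: it had 54, 338, 41 and 388 UMIs in macrophages and 0, 2, 1 and 1 UMIs in endothelial cells. Muscle stem cells were low throughout, with summed levels of 344, 634, 448 and 521 CPM.

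In macrophages the response was lower without Ccr2 almost gene for gene. Of the 38 genes, 31 were measured there, meaning a mean of at least 20 CPM and at least 50 UMIs over the 4 libraries. This limit lets in genes that are low without Ccr2 through their mdx5cv libraries. Dhx58 and Ifit1 lay below 20 CPM in both mdx5cv/Ccr2-/- libraries. In quadriceps, 21 of these 31 were at least 1.5-fold lower in mdx5cv/Ccr2-/- than in mdx5cv macrophages, on the log2(CPM + 5) scale, where 2.11% of all 5405 measured genes passed. In diaphragm, 13 of 31 passed, against 2.89% of all measured genes. In both muscles together 11 of 31 passed (Irf7, Dhx58, Zbp1, Ifit2, Ifit3, Oasl2, Rsad2, Bst2, Slfn5, Isg15 and Phf11b), against 0.944% of all measured genes. None was at least 1.5-fold higher in either muscle, where 2.89% of genes passed in quadriceps and 3.87% in diaphragm. Lower by any amount in both muscles were 30 of 31, against 17.1% of all measured genes. The median log2 ratio of the 31 genes was -0.69 in quadriceps and -0.54 in diaphragm, and that of all measured genes was 0.08 and 0.06.

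The Ifit genes, whose products bind foreign RNA, were among the genes furthest apart in macrophages. Ifit2 stood at 17.4 CPM in mdx5cv/Ccr2-/- quadriceps and 72.1 CPM in mdx5cv quadriceps, and at 31.9 CPM in mdx5cv/Ccr2-/- diaphragm and 89.1 CPM in mdx5cv diaphragm. Both mdx5cv/Ccr2-/- libraries lay below both mdx5cv libraries, with ratios of 0.241 (0.206 to 0.281) in quadriceps and 0.358 (0.300 to 0.424) in diaphragm. Ifit3 stood at 16.4, 62.8, 25.2 and 78.0 CPM, with ratios of 0.262 (0.223 to 0.306) and 0.323 (0.265 to 0.391). Ifit1 stood at 12.4, 48.5, 19.9 and 32.3 CPM, and its diaphragm ratio of 0.616 (0.487 to 0.773) was nearer to 1 than its quadriceps ratio of 0.256 (0.212 to 0.306). Ifit3b, below the limit for a measured gene, had 43, 175, 22 and 210 UMIs, the same ordering of genotypes as its near copy.

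Among the transcription factors the feedback regulator Irf7 had lower ratios than the factors of the receptor-activated complex. Irf7 stood at 32.4 CPM in mdx5cv/Ccr2-/- quadriceps and 91.8 CPM in mdx5cv quadriceps, and at 28.5 and 87.9 CPM in mdx5cv/Ccr2-/- and mdx5cv diaphragm. The ratios of Irf7 were 0.353 (0.314 to 0.396) and 0.324 (0.269 to 0.388), close in the 2 muscles. Stat2 stood at 21.4, 44.0, 30.0 and 44.3 CPM, with ratios of 0.487 and 0.677. Irf9 stood at 40.7, 54.9, 52.2 and 58.5 CPM, and its diaphragm ratio of 0.893 (0.770 to 1.03) was within counting error of 1. Whether Irf7 differs from Stat2 and Irf9 in this ratio was not tested.

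All 4 nucleic acid sensors were at least 1.5-fold lower without Ccr2 in quadriceps macrophages, and 2 of the 4 were in diaphragm, where 2.11% and 2.89% of all measured genes passed. Zbp1, a sensor of Z-form nucleic acids, stood at 25.6, 73.9, 30.6 and 72.7 CPM, with ratios of 0.347 (0.304 to 0.395) and 0.421 (0.351 to 0.502). Dhx58, which encodes LGP2, stood at 12.5, 30.1, 14.3 and 24.5 CPM, with ratios of 0.415 and 0.583. The RNA helicases RIG-I (Ddx58) and MDA5 (Ifih1) had ratios of 0.591 and 0.569 in quadriceps and of 0.705 and 0.678 in diaphragm.

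Among the effectors, Isg15, a ubiquitin-like protein attached to other proteins, stood at 37.4 and 116 CPM in mdx5cv/Ccr2-/- and mdx5cv quadriceps and at 44.9 and 122 CPM in mdx5cv/Ccr2-/- and mdx5cv diaphragm. Its ratios were 0.324 (0.290 to 0.360) and 0.368 (0.317 to 0.425). Usp18, which removes ISG15 again, was below the limit with 115, 312, 61 and 282 UMIs. Herc6, the ISG15 ligase of the mouse, had ratios of 0.601 and 0.823. Rsad2 had ratios of 0.378 (0.338 to 0.421) and 0.482 (0.410 to 0.564), and its chromosomal neighbour Cmpk2, a nucleotide kinase, had 115, 379, 49 and 213 UMIs. Tetherin (Bst2), which holds budding virus at the cell surface, stood at 256, 397, 273 and 435 CPM, with ratios of 0.644 and 0.628. Slfn5 had ratios of 0.489 and 0.579, and Slfn8 of 0.595 and 0.720.

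The Oas genes make the messenger that activates RNase L, and Oasl genes are their relatives. Oasl2 stood at 27.3, 75.9, 42.2 and 94.9 CPM, with ratios of 0.359 (0.316 to 0.408) and 0.444 (0.381 to 0.516). Oas1a stood at 21.6, 24.8, 14.7 and 30.5 CPM, so the genotypes were close in quadriceps (0.870, 0.738 to 1.03) and apart in diaphragm (0.482, 0.368 to 0.623). Oas3, below the limit, had ratios of 0.209 (0.154 to 0.279) and 0.273 (0.193 to 0.378). Oas2 and Oasl1 were also below it, with 90, 265, 91 and 317 UMIs and 125, 337, 48 and 270 UMIs.

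Of the remaining genes, Rtp4 had ratios of 0.416 and 0.685, Xaf1 of 0.448 and 0.660, Ifi35 of 0.755 and 0.553, Trim30a of 0.603 and 0.730, Phf11b of 0.623 and 0.545 and Phf11d of 0.479 and 0.633. Nearer to 1 were Trim25 (0.768 and 0.783), Dtx3l (0.699 and 0.797), Parp9 (0.848 and 0.771), Parp14 (0.746 and 0.840), Eif2ak2 (0.722 and 0.852), which encodes the kinase PKR, and Samd9l (0.881 and 0.973). Ifi44 was sparse in macrophages, with 13 UMIs in mdx5cv/Ccr2-/- quadriceps and 144 in mdx5cv quadriceps, a ratio of 0.118 (0.0614 to 0.208). In diaphragm Ifi44 had 4 UMIs in mdx5cv/Ccr2-/- and 205 in mdx5cv, a ratio of 0.0505 (0.0136 to 0.131). In endothelial cells Ifi44 stood at 86.0, 108, 95.8 and 107 CPM, with ratios of 0.799 (0.726 to 0.879) and 0.899 (0.770 to 1.05).

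**Figure D2:**
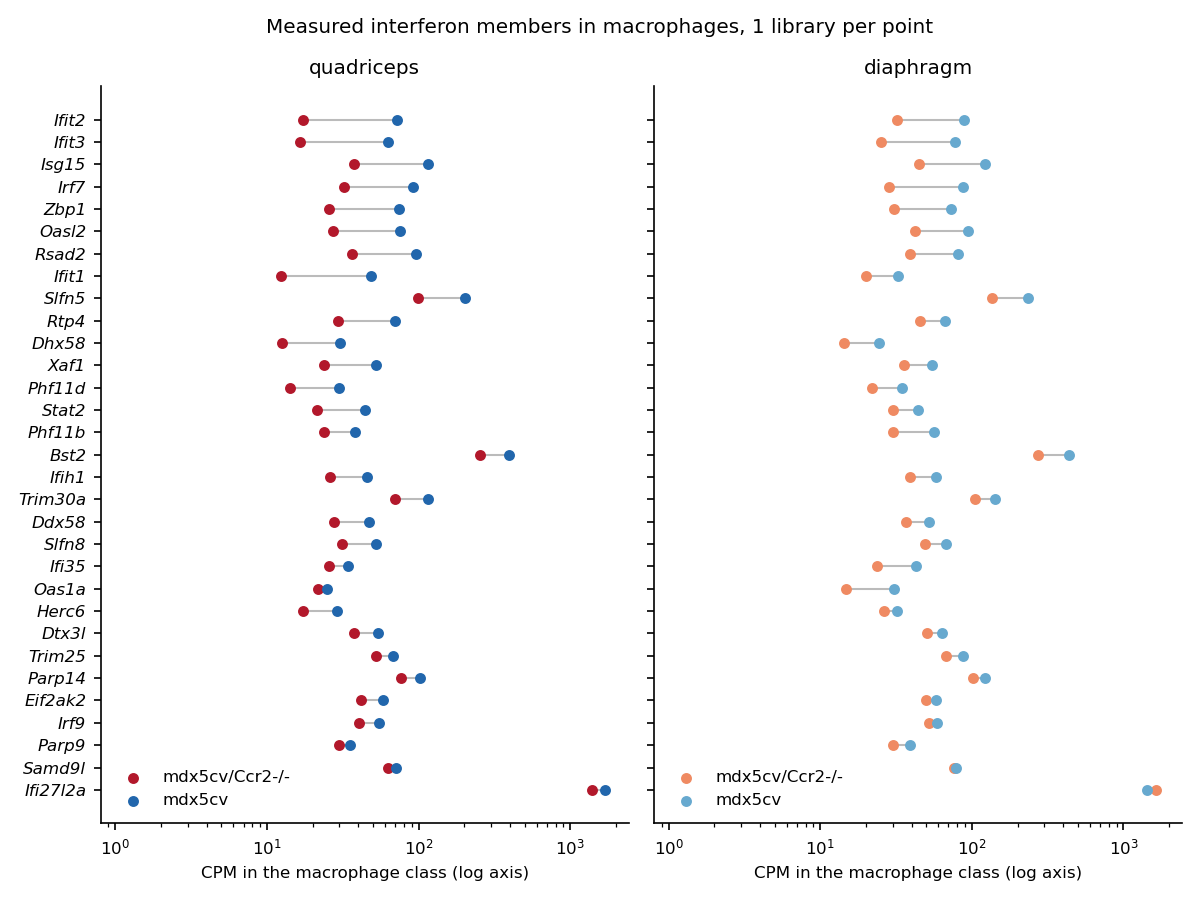
CPM of the 31 measured genes in macrophages (log axis), 1 point per library, with quadriceps on the left and diaphragm on the right. The mdx5cv/Ccr2-/- point lies left of the mdx5cv point for 30 of 31 genes in both muscles, and Ifi27l2a, in the bottom row, stood at 1385, 1689, 1640 and 1436 CPM.

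Ifi27l2a, a small membrane protein gene, was the 1 measured gene that was not lower in both muscles. Its macrophage level was 1385 CPM in mdx5cv/Ccr2-/- quadriceps and 1689 CPM in mdx5cv quadriceps, a ratio of 0.820 (0.804 to 0.836). In diaphragm it was 1640 CPM in mdx5cv/Ccr2-/- and 1436 CPM in mdx5cv, a ratio of 1.14 (1.11 to 1.17). This gene and Bst2 supply much of the summed level. Without them the summed ratio in macrophages was 0.512 in quadriceps and 0.605 in diaphragm.

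Upstream of the response, none of the 21 ligand genes reached the limit for a measured gene in macrophages. Ifnb1 had 2, 3, 6 and 7 UMIs, and the UMIs of the other ligand genes are not given. Of 6 receptor genes 5 were measured and none was 1.5-fold apart between genotypes. Ifnar1 had ratios of 0.926 (0.848 to 1.01) and 0.989 (0.880 to 1.11), and Ifnar2 of 0.804 (0.758 to 0.853) and 0.758 (0.701 to 0.820). Of 11 signalling genes 10 were measured and 1 was at least 1.5-fold lower in each muscle, with list medians of -0.11 and -0.03 on the log2 scale. Jak1 had ratios of 1.07 and 0.980, and Tyk2 of 0.833 and 1.04. Of 17 interferon-gamma targets, 10 were measured and 3 were at least 1.5-fold lower in each muscle, against 2.11% of all measured genes in quadriceps and 2.89% in diaphragm. Their median log2 ratio was -0.49 in quadriceps and -0.38 in diaphragm. Of 14 further genes of nucleic acid sensing 8 were measured, and 0 and 1 passed.

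Markers of classical monocytes moved with genotype inside the macrophage class. Of 7 such markers, 6 were lower in mdx5cv/Ccr2-/- than in mdx5cv macrophages in quadriceps and 7 in diaphragm, and their summed level was 19.1, 134, 13.2 and 116 CPM. Cells gated as classical monocytes numbered 17, 192, 4 and 74, and they held 5884, 7433, 3679 and 7658 CPM of the 38 genes. Macrophages with no monocyte marker UMI numbered 731, 605, 402 and 1304, or 86.9%, 55.4%, 92.4% and 76.5% of the class. Among them the summed ratio was 0.753 (0.741 to 0.766) in quadriceps and 0.848 (0.832 to 0.865) in diaphragm. At least 1.5-fold lower in both muscles were 7 of 30 measured genes (0.906% of all measured genes). Of the 7 markers, Ly6c2 and Plac8 themselves respond to interferon. This selection therefore also sorts cells by the response, and the part of monocyte content in these ratios was not tested. Genes induced by tissue dissociation also had lower medians without Ccr2 in macrophages, at -0.39 and -0.22 on the log2 scale over 15 genes, and their part in the result was not tested.

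The mixture of macrophages differed between genotypes too. Resident macrophages of muscle are known by Folr2, Cd163, Lyve1 and Timd4, and cells with at least 2 of these 4 detected made up 13.7%, 9.42%, 38.4% and 12.1% of the class. In these cells (115, 103, 167 and 207) the summed ratio was 0.819 (0.795 to 0.845) in quadriceps and 0.987 (0.955 to 1.02) in diaphragm. Of their genes, 5 of 33 measured genes were at least 1.5-fold lower in both muscles, against 0.798% of all measured genes. In the cells with fewer than 2 of the markers (726, 990, 268 and 1497) the summed ratio was 0.614 (0.604 to 0.623) in quadriceps and 0.603 (0.589 to 0.618) in diaphragm, and 17 of 30 measured genes passed in both muscles, against 1.30%. The split was made after the data were seen, and the difference between the subsets was not tested. It used cells that were not thinned, and median depth in the macrophage class was 11583, 12586, 9899 and 6761.5 UMIs. The part of depth in the shares was not tested.

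**Figure D3:**
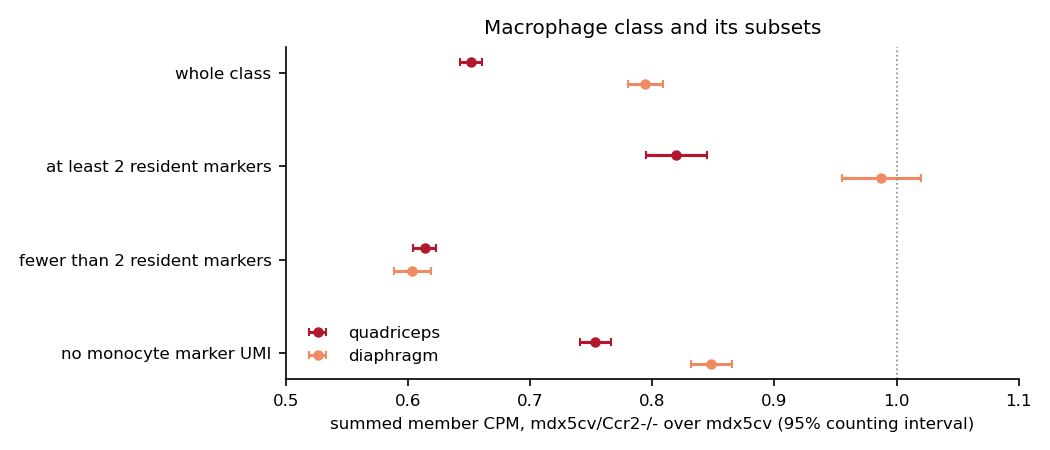
Summed CPM of the 38 genes in mdx5cv/Ccr2-/- over mdx5cv macrophages (horizontal axis), for the whole class and 3 subsets of it, with 95% counting intervals. Cells with fewer than 2 resident markers stood near 0.6 in both muscles, and in cells with at least 2 the diaphragm interval (0.955 to 1.02) includes 1.

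Single genes followed the split in different ways. Among cells with resident markers, Ifit2 stood at 22.5 and 78.6 CPM in mdx5cv/Ccr2-/- and mdx5cv quadriceps, and at 53.6 and 54.6 CPM in mdx5cv/Ccr2-/- and mdx5cv diaphragm, where the ratio was 0.982 (0.715 to 1.35). In the cells without them the diaphragm levels of Ifit2 were 19.7 CPM in mdx5cv/Ccr2-/- and 93.3 CPM in mdx5cv, a ratio of 0.211 (0.160 to 0.274). Isg15 behaved likewise in diaphragm, with a ratio of 0.783 (0.596 to 1.03) in cells with resident markers and 0.268 (0.218 to 0.328) in cells without. Irf7 was lower without Ccr2 in both kinds of cell, with diaphragm ratios of 0.497 (0.362 to 0.680) and 0.251 (0.193 to 0.321). Ifi27l2a was highest in cells with resident markers, at 3879, 3572, 2625 and 2086 CPM, where its ratios were 1.09 and 1.26, and in cells without them its ratios were 0.733 and 0.801.

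Counted per cell, the response was spread unevenly. Each cell was thinned to 2000 UMIs, which left out 27, 45, 21 and 104 shallower macrophages. At least 5 of the 38 genes were then detected in 18.1% (15.5 to 20.9) of macrophages in mdx5cv/Ccr2-/- quadriceps and 40.6% (37.7 to 43.7) in mdx5cv quadriceps. In diaphragm the shares were 24.2% (20.1 to 28.6) in mdx5cv/Ccr2-/- and 42.8% (40.3 to 45.2) in mdx5cv macrophages. Without thinning the shares were 83.4%, 91.4%, 83.2% and 84.5%. Fibroblasts reached 8.02%, 12.8%, 10.5% and 14.9% after thinning, and endothelial cells 50%, 57.6%, 47% and 48.5%. Muscle stem cells at the same depth reached 0.803%, 1.44%, 2.86% and 1.38%. The curves of detected genes per cell separate by genotype in macrophages in both muscles. In endothelial cells the quadriceps lines were apart at 5 genes (47.7 to 52.3 without Ccr2, 54.6 to 60.7 with it), and the intervals of the diaphragm lines (43.2 to 50.8 without Ccr2, 44.3 to 52.6 with it) overlapped.

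**Figure D4:**
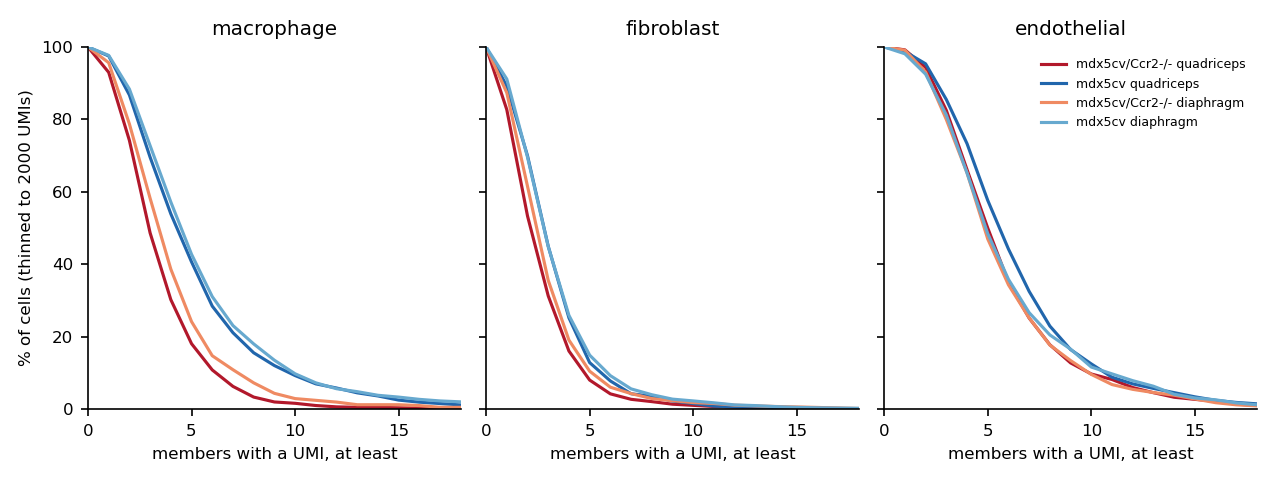
Share of cells (vertical axis, %) in which at least the given number of the 38 genes (horizontal axis) had a UMI, with every cell thinned to 2000 UMIs, 1 line per library. At 5 genes the macrophage lines stand at 18.1%, 40.6%, 24.2% and 42.8%, and the endothelial lines at 50%, 57.6%, 47% and 48.5%.

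Macrophages with a UMI of Ifit3 held more UMIs of the other genes, on average 14.9 against 5.47 UMIs in those without it in mdx5cv/Ccr2-/- quadriceps and 19 against 7.66 in mdx5cv quadriceps. The other genes include the near copy Ifit3b, whose part in these means was not tested. In thinned macrophages Ifit3 was seen in 22, 84, 17 and 129 cells, or 2.70%, 8.02%, 4.11% and 8.06%. Isg15 was seen in 27.3% of macrophages with Ifit3 and 6.06% of those without it in mdx5cv/Ccr2-/- quadriceps, and in 52.4% and 11.5% in mdx5cv quadriceps. In diaphragm the shares with and without Ifit3 were 35.3% and 3.53% in mdx5cv/Ccr2-/- and 48.1% and 11.3% in mdx5cv macrophages. Isg15 was thus more frequent beside Ifit3 in all 4 libraries. Ifi27l2a was seen in 68.2% with and 63.8% without Ifit3 in mdx5cv/Ccr2-/- quadriceps and in 79.8% with and 75.4% without it in mdx5cv quadriceps. In diaphragm it was seen in 100% with and 70.5% without Ifit3 in mdx5cv/Ccr2-/- and in 86.8% with and 75.5% without it in mdx5cv macrophages. All these shares come from cells of 1 library each and carry no test.

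In fibroblasts, 24 genes were measured and the differences were smaller per gene. None of the 24 was at least 1.5-fold lower without Ccr2 in both muscles, against 0.121% of all 5807 measured genes. In quadriceps 2 of 24 passed, Ifi27l2a and Slfn5, against 2.69%. Lower by any amount in both muscles were 21 of 24, against 15.3%, and the median log2 ratio was -0.28 in quadriceps and -0.19 in diaphragm (0.04 in each for all measured genes). Ifi27l2a stood at 227 and 463 CPM in mdx5cv/Ccr2-/- and mdx5cv quadriceps, a ratio of 0.491 (0.473 to 0.510), and at 548 and 692 CPM in mdx5cv/Ccr2-/- and mdx5cv diaphragm, a ratio of 0.793 (0.779 to 0.806). Slfn5 stood at 136, 216, 155 and 170 CPM, apart in quadriceps (0.630, 0.598 to 0.664) and near 1 in diaphragm (0.911, 0.881 to 0.942). Isg15 ran the other way, with 0.881 (0.815 to 0.953) in quadriceps and 0.678 (0.643 to 0.715) in diaphragm. Phf11d had ratios of 0.626 and 0.858, Rtp4 of 0.736 and 0.722, Ifi35 of 0.654 and 0.841, Bst2 of 0.801 and 0.773 and Trim30a of 0.745 and 0.805. Ifit2 and Ifit3, the 2 measured genes with the largest mean log2 difference in macrophages, had fibroblast ratios of 1.17 (0.985 to 1.38) and 0.882 (0.790 to 0.986) in quadriceps and of 0.908 (0.837 to 0.985) and 0.860 (0.818 to 0.903) in diaphragm. Macrophage markers in the fibroblast class summed to 131, 176, 193 and 235 CPM, and dissociation genes had medians of -0.09 in quadriceps and -0.57 in diaphragm. Their part in these ratios was not tested.

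Endothelial cells, with the highest levels of many of these genes, showed smaller differences between genotypes, with Ifi27l2a as the exception. Of 31 measured genes, 1 was at least 1.5-fold lower in both muscles, against 0.300% of all 5991 measured genes, and 18 of 31 were lower by any amount in both, against 16.8%. The median log2 ratio was -0.21 in quadriceps and -0.04 in diaphragm (0.06 and 0.01 for all measured genes). Ifi27l2a stood at 174 and 316 CPM in mdx5cv/Ccr2-/- and mdx5cv quadriceps, a ratio of 0.552 (0.519 to 0.587), and at 136 and 347 CPM in mdx5cv/Ccr2-/- and mdx5cv diaphragm, a ratio of 0.393 (0.353 to 0.437). Both mdx5cv/Ccr2-/- libraries lay below both mdx5cv libraries. Irf7 had ratios of 0.653 (0.586 to 0.728) and 0.723 (0.612 to 0.855), and Oas2 of 0.585 (0.488 to 0.701) and 0.748 (0.556 to 1.01). Trim25, a ubiquitin ligase that acts on RIG-I, was higher without Ccr2, at 129, 113, 128 and 85.6 CPM, with ratios of 1.14 (1.04 to 1.24) and 1.49 (1.28 to 1.75). Slfn5 was also slightly higher, with 1.09 (1.05 to 1.13) and 1.13 (1.06 to 1.19). Irf9 had ratios of 0.853 and 0.794, Oasl2 of 0.814 and 0.831, and Ifit3b of 0.782 and 1.25. The intervals of Isg15 included 1, at 0.946 (0.875 to 1.02) and 1 (0.891 to 1.13). Without Ifi27l2a and Bst2 the summed ratio was 0.950 in quadriceps and 1.02 (0.988 to 1.04) in diaphragm, so the lower diaphragm sum rests on those genes. Macrophage markers in the endothelial class summed to 655, 755, 480 and 658 CPM, lower without Ccr2 in both muscles. Dissociation genes had medians of -0.28 in quadriceps and -0.43 in diaphragm, with 2 and 4 of 15 at least 1.5-fold lower without Ccr2. The part of either in the ratios, that of Ifi27l2a included, was not tested.

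**Figure D5:**
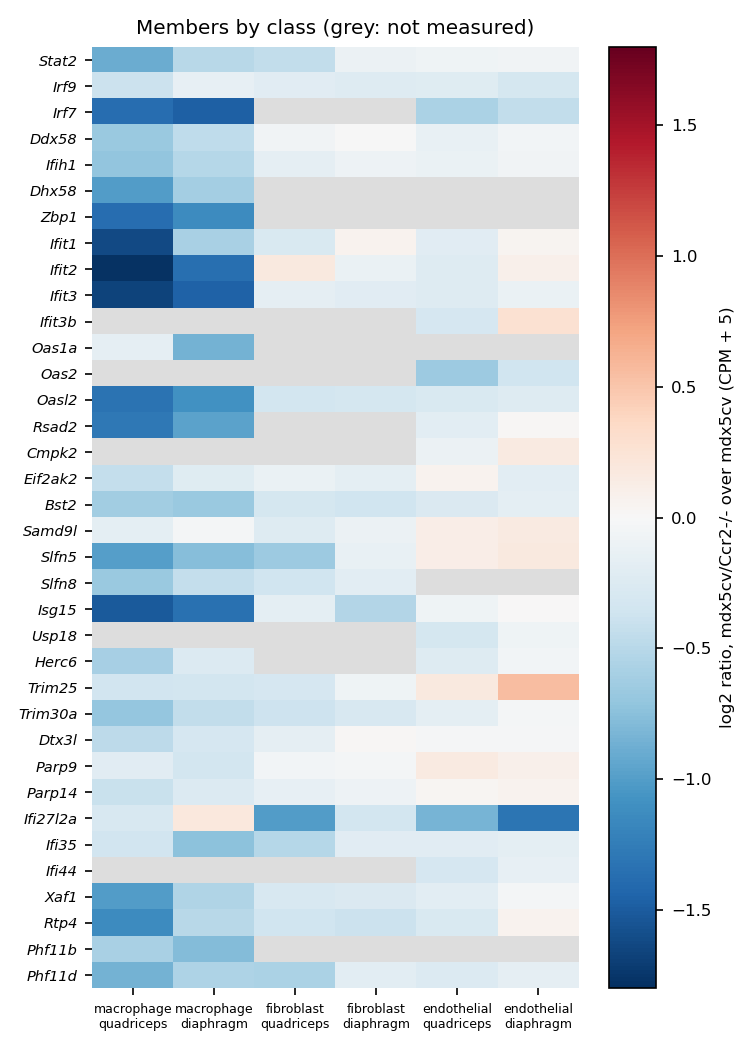
Log2 ratio of mdx5cv/Ccr2-/- over mdx5cv (colour, on CPM + 5) for each gene measured in at least 1 of 3 classes, with quadriceps and diaphragm side by side and grey where a gene was not measured. Blue cells run through the macrophage columns, down to -1.78 for Ifit2 in quadriceps, while in endothelial cells Ifi27l2a is the 1 gene past 1.5-fold in both muscles.

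Among the smaller classes, dendritic cells (59, 55, 61 and 97 cells) held 1521, 2433, 1860 and 2544 CPM of the 38 genes. Their ratios were 0.625 (0.580 to 0.674) and 0.731 (0.687 to 0.779). Zbp1, Ifit2, Isg15 and Ifi27l2a, 4 of 23 measured genes, were at least 1.5-fold lower in both muscles, against 0.966% of all measured genes. Ifi27l2a stood at 198, 498, 264 and 642 CPM, with ratios of 0.398 (0.326 to 0.483) and 0.410 (0.352 to 0.477). Macrophage markers in the dendritic class summed to 247, 439, 179 and 258 CPM. Ccr7 and Fscn1, markers of mature dendritic cells, stood at 43.8 and 79.3 CPM in mdx5cv/Ccr2-/- quadriceps against 141 and 186 CPM in mdx5cv quadriceps. In diaphragm they stood at 248 and 219 CPM in mdx5cv/Ccr2-/- against 292 and 169 CPM in mdx5cv. Other dendritic markers went the other way in quadriceps. Flt3, Cd209a and Xcr1 stood at 224, 212 and 384 CPM in mdx5cv/Ccr2-/- quadriceps, against 171, 111 and 277 CPM in mdx5cv quadriceps. Zbtb46 and Clec9a were lower without Ccr2 in quadriceps. In diaphragm Xcr1 was higher without Ccr2, and Flt3, Cd209a, Zbtb46 and Clec9a were lower. The part of these markers in the ratios was not tested. Bst2 stood at 170, 179, 226 and 218 CPM and Slfn5 at 179, 268, 146 and 162 CPM. Mural cells (318, 163, 73 and 65), which wrap small vessels, held 1163, 1722, 629 and 1056 CPM, with ratios of 0.675 (0.633 to 0.721) and 0.595 (0.506 to 0.701). Rsad2, Isg15 and Ifi27l2a, 3 of 19 measured genes, passed in both muscles, against 0.353%. Rsad2 stood at 1.96 CPM in mdx5cv/Ccr2-/- diaphragm mural cells, so it met the limit for a measured gene through other libraries. In diaphragm mural cells 6 of 19 were at least 1.5-fold lower, against 11.5% of all measured genes. Irf9 and Samd9l, 2 of 19, were at least 1.5-fold higher there, against 11.7%. Among mural markers in diaphragm, Kcnj8 stood at 90.1 CPM without and 378 CPM with Ccr2, and Myh11 at 5594 and 4171 CPM. The part of such shifts in the ratios was not tested. Ifi27l2a stood at 184, 463, 56.8 and 117 CPM in mural cells, Isg15 at 75.9, 123, 56.8 and 154 CPM and Slfn5 at 142, 191, 47 and 103 CPM. Muscle stem cells (263, 142, 109 and 224) had 7 measured genes, of which 4 were at least 1.5-fold lower in quadriceps, against 1.08%, and none in both muscles, against 0.256%. Bst2 stood at 39.8, 72.0, 52.1 and 67 CPM in them, Isg15 at 13.9, 45.3, 59.2 and 63.3 CPM and Ifi27l2a at 18.9, 62.7, 13.3 and 21.2 CPM. Macrophage markers summed to 164, 153, 72.5 and 183 CPM in mural cells and to 1122, 1348, 639 and 382 CPM in muscle stem cells. Dissociation genes had quadriceps and diaphragm medians of -0.43 and -0.21 in dendritic cells, -0.0031 and -0.34 in mural cells, and -0.34 and 0.54 in muscle stem cells. Their part was not tested. Ifi27l2a had its CPM lower without Ccr2 in both muscles in each of the 5 classes other than macrophages.

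Within a genotype, most of the genes in macrophages stood higher in the diaphragm than in the quadriceps, by small amounts. The median log2 ratio of the 31 genes was 0.36 in mdx5cv/Ccr2-/- and 0.13 in mdx5cv macrophages. That of all measured genes was 0.0043 and -0.00026. Intervals lay above 1 for 23 genes and below 1 for 1 in mdx5cv/Ccr2-/- macrophages. In mdx5cv macrophages they lay above 1 for 17 and below 1 for 4. Such interval counts are not given for all measured genes. The summed ratio of diaphragm over quadriceps was 1.22 (1.20 to 1.25) in mdx5cv/Ccr2-/- macrophages and 1 (0.993 to 1.02) in mdx5cv macrophages, a sum to which Ifi27l2a gave 1436 CPM in diaphragm and 1689 CPM in quadriceps. In mdx5cv/Ccr2-/- cells with at least 2 resident markers the summed level was 4771 CPM in diaphragm and 5310 CPM in quadriceps, and in those with fewer it was 2439 and 2343 CPM. The higher mdx5cv/Ccr2-/- diaphragm sum was thus not seen among cells with resident markers, and the step was small among those with fewer. The share of cells with resident markers was 38.4% in diaphragm and 13.7% in quadriceps. The part of this share in the summed ratio was not tested. Ifit2 was the 1 gene at least 1.5-fold higher in mdx5cv/Ccr2-/- diaphragm, with a ratio of 1.83 (1.47 to 2.28), against 6.85% of all measured genes, and in mdx5cv macrophages its ratio was 1.23 (1.13 to 1.34). In fibroblasts the summed ratio was 1.37 (1.35 to 1.39) in mdx5cv/Ccr2-/- and 1.17 (1.15 to 1.18) in mdx5cv cells. Ifit3 had fibroblast ratios of 1.88 (1.73 to 2.04) in mdx5cv/Ccr2-/- and 1.93 (1.76 to 2.11) in mdx5cv cells, and Ifi27l2a of 2.41 (2.34 to 2.49) and 1.49 (1.45 to 1.53). Passing 1.5-fold in the diaphragm were 2 of 24 genes in each genotype, against 7.34% and 6.13% of all measured genes. In endothelial cells the summed ratio was 0.986 in mdx5cv/Ccr2-/- and 0.944 in mdx5cv cells. All 15 dissociation genes were at least 1.5-fold higher in the diaphragm in macrophages (medians of 1.60 in mdx5cv/Ccr2-/- and 1.49 in mdx5cv on the log2 scale) and in fibroblasts (1.40 and 1.84), and their part in these ratios was not tested. These comparisons reuse the same 4 libraries as the genotype comparisons and add no independent check.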

How the data were processed

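The authors deposited raw UMI counts per gene and barcode for 4 libraries, with no normalisation. Per the file headers the software was Cell Ranger 6.1.2, and per the submitters' processing notes the build was mm10. The sources used here name no annotation release, intron setting or cell-calling rule. Of 33554 barcodes, 31077 passed limits of 500 UMIs, 300 genes and 15% mitochondrial UMIs. The highest Scrublet doublet scores (scanpy 1.11.5) were removed at 0.8% per 1000 barcodes (2342), an assumption about loading. A cell joined the class whose markers took the largest scaled share of its UMIs, with at least 3 markers, at least 5 UMIs and at least 2 times the scaled share of the next class. These limits were set after seeing the data, and 2083 cells with markers met no class. UMIs were summed per class and library and expressed as CPM. Log2 ratios used a pseudocount of 5 CPM, and measured genes needed a mean of 20 CPM and 50 UMIs. Intervals of ratios are exact conditional binomial (Clopper-Pearson, scipy 1.17.1) and those of shares exact binomial, at 95%, for counting error only. The ratio and interval code was tested on simulated data.

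The genes, gene lists and comparisons were chosen with earlier results of these data known. In macrophages every listed gene is named. In fibroblasts and endothelial cells the 8 measured genes with the largest mean absolute log2 ratio are named, and in smaller classes the 3 with the highest mean CPM; other genes named there were chosen after their values were seen. Promoters came from RefSeq (GRCm38.p6) by symbol, and positions from GENCODE M21. The alternatives cover the gate, the cell and gene filters, doublets, scaling, cell weight, depth and the pseudocount. Results for 2 further genes of these lists are not reported here.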

Additional observations from a re-analysis of the deposited data

Results flagged for a closer look

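In macrophages Ifi27l2a differed from its mdx5cv level in opposite directions in the 2 muscles. The ratio of mdx5cv/Ccr2-/- over mdx5cv was 0.820 (0.804 to 0.836) in quadriceps and 1.14 (1.11 to 1.17) in diaphragm. The intervals lie on opposite sides of 1, and with 1 library per group the difference between the muscles was not tested. Cells with at least 2 resident markers had a higher CPM of Ifi27l2a than the other macrophages in each library. They made up 13.7% and 9.42% of mdx5cv/Ccr2-/- and mdx5cv quadriceps macrophages and 38.4% and 12.1% of mdx5cv/Ccr2-/- and mdx5cv diaphragm macrophages. Among cells with fewer than 2 of these markers the ratio was 0.733 (0.716 to 0.750) in quadriceps and 0.801 (0.771 to 0.832) in diaphragm, and among cells with at least 2 it was 1.09 (1.05 to 1.13) and 1.26 (1.20 to 1.32).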

How the results depend on the processing

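No paired analysis was possible because the groups share 1 replicate number at most and no result here comes from a test. With 1 library per group none could be left out. The numbers of genes at least 1.5-fold lower without Ccr2 in both muscles (11 in macrophages, 0 in fibroblasts and 1 in endothelial cells) stayed within 1.5 times under each of 9 processing alternatives, with 10 to 16 in macrophages. Of 1548 values of single genes under these alternatives, 1507 kept their side of 1.5-fold, 26 passed it anew and 15 fell short of it. None past 1.5-fold changed direction, and changes of direction short of 1.5-fold were not counted. The 172 values obtained without the limit for a measured gene could not change, since that limit leaves each ratio as it is.

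Summed ratios of mdx5cv/Ccr2-/- over mdx5cv moved beyond their counting intervals in the following cases. With median-ratio scaling, which shifted log2 ratios by less than 0.1, they were 0.618 and 0.753 in quadriceps and diaphragm macrophages, 0.681 and 0.806 in fibroblasts and 0.865 in quadriceps endothelial cells. With each cell counting alike they were 0.671 and 0.767 in macrophages, 0.736 and 0.842 in fibroblasts and 0.919 in quadriceps endothelial cells. After thinning they were 0.772 in diaphragm macrophages, 0.740 and 0.846 in fibroblasts and 0.919 in quadriceps endothelial cells. A stricter gate gave 0.687 in quadriceps macrophages and 0.718 and 0.846 in fibroblasts, and a gate without Ly6c2 and Plac8 gave 0.639, 0.685 and 0.805 for the same values. Without doublet removal quadriceps macrophages stood at 0.661, quadriceps fibroblasts at 0.686 and diaphragm endothelial cells at 0.918.

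Alternatives added after the data were seen moved values further. Without Ifi27l2a and Bst2 the sums gave 0.512 and 0.605 in macrophages, 0.776 and 0.865 in fibroblasts, and 0.950 and 1.02 in endothelial cells, the last on the other side of 1. Macrophages with resident markers gave 0.819 and 0.987 and 5 genes lower in both muscles, those without 0.614 and 0.603 and 17 genes, and those with no monocyte marker UMI 0.753 and 0.848 and 7 genes. The last selection uses Ly6c2 and Plac8, which respond to interferon. Among cells with resident markers the diaphragm log2 ratio of Phf11b was 0.28, against -0.78 in the whole class. The cause was not tested. Intervals cover counting error only, so no ratio here carries the variation between animals.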

Other observations

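Classes with fewer than 50 cells in at least 1 library were left out of the comparisons. Classical monocytes (17, 192, 4 and 74 cells) held 5884 and 7433 CPM of the 38 genes in mdx5cv/Ccr2-/- and mdx5cv quadriceps and 3679 and 7658 CPM in mdx5cv/Ccr2-/- and mdx5cv diaphragm. T cells (102, 37, 147 and 218) held 1370, 2149, 1274 and 1637 CPM in the same order, and B cells (57, 27, 58 and 175) held 1500, 1627, 1302 and 1742 CPM. Neutrophils (62, 42, 7 and 10 cells) held 1327 and 3327 CPM in mdx5cv/Ccr2-/- and mdx5cv quadriceps and 1593 and 6037 CPM in mdx5cv/Ccr2-/- and mdx5cv diaphragm. Schwann and glial cells numbered 51 and 49 in quadriceps and held 1089 CPM in mdx5cv/Ccr2-/- and 2541 CPM in mdx5cv. Mesothelial cells, which line the diaphragm, numbered 5 in mdx5cv/Ccr2-/- and 78 in mdx5cv diaphragm, and held 2059 and 4267 CPM. NK cells (18, 21, 15 and 32) held 894, 1156, 659 and 1184 CPM. In each pair named so far the mdx5cv/Ccr2-/- value was the lower, but some values rest on 10 cells or fewer and none carries an interval. Macrophage markers were also lower without Ccr2 in these pairs, at 304 against 580 CPM in quadriceps neutrophils. The exceptions were B cells in both muscles and NK cells in quadriceps. The part of these markers was not tested. Tenocytes (125, 125, 13 and 5) held 676 and 882 CPM in mdx5cv/Ccr2-/- and mdx5cv quadriceps, and went the other way in diaphragm with 1165 CPM in mdx5cv/Ccr2-/- and 790 CPM in mdx5cv. None of these differences was tested.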
